A study of Mus musculus with 35 samples.

Results

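The cytosolic ribosomal proteins are the protein subunits of the ribosomes that translate nuclear mRNAs. They were taken as every mouse gene symbol in the mRNA comparison that starts with Rpl or Rps followed by a digit, plus Rplp0, Rplp1, Rplp2 and Rpsa, without symbols holding -ps and without the Rps6k kinases. Of 223 symbols that matched, 124 pseudogene symbols and 9 kinases were dropped, which left 90 members among 18947 genes. They comprise 77 structural subunits (31 of the small and 46 of the large subunit), 9 paralogs, 3 further copies (Rps12l1, Rpl37rt, Rpl6l) and Rps19bp1, which binds Rps19 but is no subunit. The 3 further copies were set apart from the paralogs after their values had been seen.

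Total RNA was sequenced from interscapular brown adipose tissue (iBAT, 4 libraries) and epididymal white adipose tissue (eWAT, 4 libraries). Both groups are whole flash-frozen depots of untreated male C57BL/6J mice of 15 weeks, with no transgene or deletion named, so fat cells, vessels, immune cells and attached tissue were sequenced together. The 27 other samples of the series, 35 in all, are Argonaute crosslinking and microRNA libraries and were not used here. No label says that libraries of a group came from separate mice. The mRNA values used here are those of the authors' deposited table, which holds 1 comparison: for each gene a base mean (the mean over the libraries of counts divided by a size factor), a log2 fold change of iBAT over eWAT with its standard error, a p-value and an adjusted p-value. It holds no value per library, so no SD, depth or spread between libraries can be given, and every error below is the deposited standard error (SE).

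A ribosome holds 1 copy of almost every subunit, and cells make the subunits in step with ribosomal RNA. The mRNAs of these proteins carry a 5′ terminal oligopyrimidine tract (TOP), a run of C and T bases at the very start of the transcript, through which mTORC1 and the RNA-binding protein Larp1 control their translation. Their promoters often bind Ets-family factors of the GABP type and YY1. Brown fat is rich in mitochondria, which have ribosomes of their own, built from a separate set of proteins.

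Promoter sequences are shown for pyrimidine runs near the annotated start. They are given for Rps24 (the lowest subunit fold), Rpl27a (also among the 10 lowest), and for Rps26 and Rpl39l, which were higher in iBAT. Each line covers 100 bases before and 20 from the annotated start (RefSeq, GRCm38.p6). Capitals mark the longest pyrimidine run within the 20 bases on either side of the start. For Rpl39l the start used lies downstream of the first base of the gene (chr16:10170197). The positions are chr14:24490578-24490697 (plus strand) for Rps24, chr7:109519095-109519214 (plus strand) for Rpl27a, chr10:128626487-128626606 (minus strand) for Rps26 and chr16:10170128-10170247 (plus strand) for Rpl39l.
Rps24: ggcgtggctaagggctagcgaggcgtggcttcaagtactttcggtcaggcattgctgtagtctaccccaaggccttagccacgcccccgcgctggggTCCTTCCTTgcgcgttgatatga
Rpl27a: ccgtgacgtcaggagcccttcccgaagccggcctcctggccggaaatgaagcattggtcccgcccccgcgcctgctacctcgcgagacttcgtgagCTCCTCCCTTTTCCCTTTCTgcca
Rps26: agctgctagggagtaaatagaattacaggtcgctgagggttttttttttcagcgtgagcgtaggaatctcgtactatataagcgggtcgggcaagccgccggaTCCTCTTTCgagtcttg
Rpl39l: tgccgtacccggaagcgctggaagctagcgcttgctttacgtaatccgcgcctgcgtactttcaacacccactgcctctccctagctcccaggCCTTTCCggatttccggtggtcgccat
The marked runs are 9 bases in Rps24, 20 in Rpl27a, 9 in Rps26 and 7 in Rpl39l. The runs of Rps24 and Rpl27a span the annotated start, that of Rps26 begins after it and that of Rpl39l ends before it. These promoters are examples, and runs that span the start were not counted for members lower in iBAT against the others. Whether a marked run is a TOP tract was not tested.

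RefSeq promoters, 300 bases from 250 before to 50 after the start, were matched for 65 of the 90 members (76 promoters). A run of at least 7 pyrimidines within 20 bases of the start, on the gene's strand, was found in 39 of 76 (51.3%), against 24.3% of all 32851 promoters. The Ets-type motif CCGGAAG, searched on both strands, was found in 27 (35.5%), against 8.86% of all promoters. The YY1-type motif AAGATGGC on either strand was found in 8 (10.5%), against 2.75%. TATAAA on either strand was found in 6 (7.89%), against 13.6%. Promoters of members lower in iBAT and of the other members held these letters at like shares: the pyrimidine run was in 52.8% and 50%, and CCGGAAG in 36.1% and 35%, of 36 and 40 promoters. These are matches of letters and not sites.

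The subunit mRNAs were mostly lower in iBAT. A gene was called at the deposited adjusted p under 0.05. Of all 18947 genes, 48% were called in either direction, 27.1% lower and 20.9% higher in iBAT. Of the 90 members, 42 (46.7%) were lower, 3 (3.33%) were higher and 45 were not called. The share called lower was above that of all genes and the share called higher was below it. The log2 fold change was negative for 76 members, with a median of -0.55 and quartiles of -0.89 and -0.19, against a median of -0.10 over all genes. Among the 77 structural subunits, 41 (53.2%) were lower, 2 (2.60%) were higher and 34 were not called, with a median of -0.62. In 13 of the subunits called lower the log2 fold change was 1 or more in size. Fold changes of the subunits had an SD of 0.47 across genes beside a median SE of 0.28, and for 60 of 77 the 95% interval (1.96 SE on either side) held the median of the subunits.

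**Figure D1:**
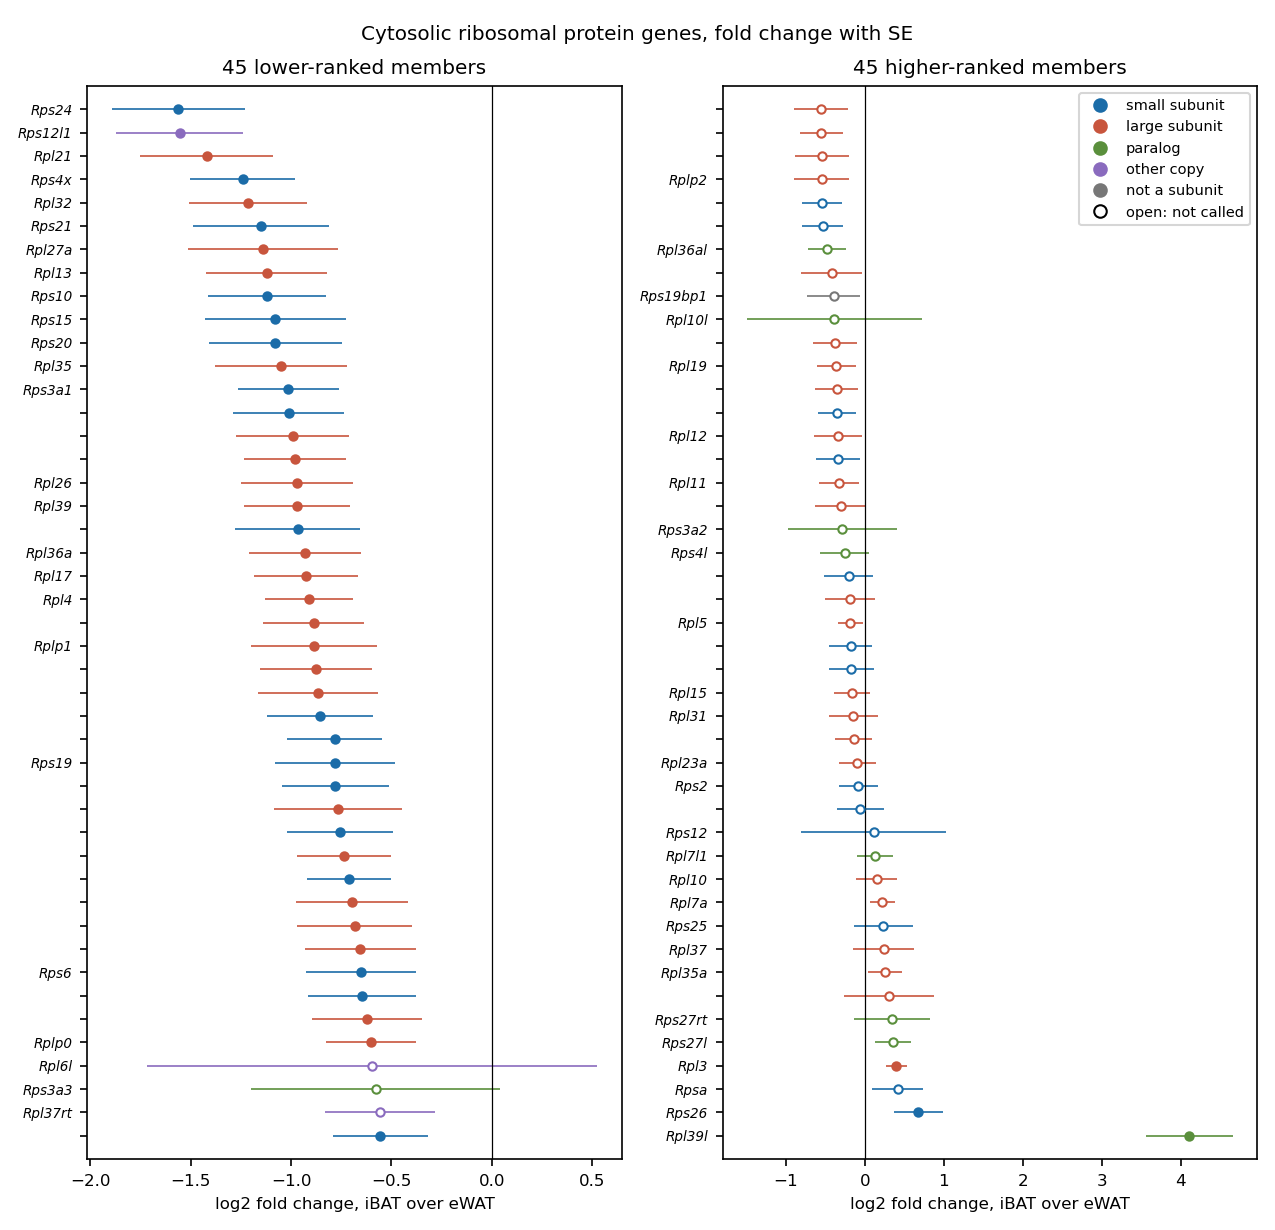
Log2 fold change of iBAT over eWAT (x axis) for each of the 90 members, ranked, with bars of 1 SE and names for those described in the text; filled points were called at an adjusted p under 0.05, and colours give the class. Most subunits lie left of 0, the lowest at -1.56 (Rps24), and Rpl39l stands apart at 4.11; the 2 panels have different x axes.

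In the small subunit, which reads the mRNA, 18 of 31 genes were lower, 1 was higher and 12 were not called, with a median log2 fold change of -0.65. In the authors' deposited table Rps24 (ENSMUSG00000025290, GRCm38 chr14:24490678-24496960), whose human counterpart is needed to mature 18S ribosomal RNA, had the lowest value, -1.56 ± 0.33 (adjusted p = 3.36e-06, base mean 17150). Its level in iBAT was thus 0.339 times that in eWAT. Rps4x, encoded on the X chromosome in mouse, followed in the authors' deposited table with -1.24 ± 0.26 (adjusted p = 5.13e-06, base mean 18595). Rps21 was next there at -1.15 ± 0.34 (adjusted p = 0.00102). Rps10 and Rps20, which in human cells are ubiquitinated when ribosomes collide, were both lower. Their deposited values were -1.12 ± 0.29 (adjusted p = 0.000264) for Rps10 and -1.08 ± 0.33 (adjusted p = 0.00159) for Rps20. Rps15, a protein of the small subunit's head, had -1.08 ± 0.35 in the authors' deposited table (adjusted p = 0.00301).

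Not every small subunit gene was lower. Rps3a1 and Rps2 had 2 of the 3 largest base means of the subunits in the authors' deposited table, 25057 and 24670 (base means are not divided by gene length, so they rank the reads behind a value and not the levels). Rps3a1 was lower there at -1.01 ± 0.25 (adjusted p = 0.000145). Rps2, which lines the channel where mRNA enters, had -0.08 ± 0.25 (adjusted p = 0.812), the sign of which turns when folds are centred on the median of all genes. Rps26, which touches mRNA upstream of the start codon, was the only small subunit gene called higher, at 0.68 ± 0.31 in the authors' deposited table (adjusted p = 0.0436, base mean 122). That call did not hold when the p-value was computed from fold and SE (adjusted p = 0.0623). Rpsa, which is also known as a laminin receptor precursor, had 0.41 ± 0.32 (adjusted p = 0.264), and Rps25 had 0.23 ± 0.38 on a deposited base mean of 84.0.

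In the large subunit, which forms the peptide bond, 23 of 46 genes were lower, 1 was higher and 22 were not called, with a median of -0.58. The lowest in the authors' deposited table were Rpl21 at -1.42 ± 0.33 (adjusted p = 2.38e-05, base mean 13392) and Rpl32 at -1.21 ± 0.29 (adjusted p = 5.86e-05, base mean 10989). Rpl32 is often used as a reference gene in expression assays. Rpl27a had -1.14 ± 0.37 there (adjusted p = 0.00292) and Rpl13 had -1.12 ± 0.30 (adjusted p = 0.000333). Rpl3, which reaches towards the site of peptide bond formation, was the only large subunit gene called higher. Its deposited value was 0.40 ± 0.13 (adjusted p = 0.00514, base mean 9740; GRCm38 chr15:80077781-80083406). Rpl35a, Rpl7a and Rpl10 also had positive values in the authors' deposited table, 0.25 ± 0.22, 0.22 ± 0.16 and 0.15 ± 0.26, with adjusted p of 0.336, 0.251 and 0.652. Rpl37 had 0.24 ± 0.39 there, on a base mean of 33.1.

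By place in the ribosome, genes around the tunnel through which the new protein leaves were among the lower ones: 5 of 8 were called lower, none higher, and the median was -0.92. Rpl35 had by the authors' deposited table -1.05 ± 0.33 (adjusted p = 0.00223), Rpl26 -0.97 ± 0.28 (adjusted p = 0.001), Rpl39 -0.97 ± 0.26 (adjusted p = 0.000488) and Rpl17 -0.93 ± 0.26 (adjusted p = 0.000656). Rpl4, a loop of which lines the tunnel and which had the largest base mean of all members (25701), had a deposited value of -0.91 ± 0.22 (adjusted p = 7.6e-05). Rpl19, Rpl31 and Rpl23a were not called, at -0.36 ± 0.25, -0.15 ± 0.31 and -0.10 ± 0.23 in the authors' deposited table. In the stalk that recruits the GTPase factors, Rplp0 (-0.60 ± 0.23, adjusted p = 0.0149) and Rplp1 (-0.89 ± 0.31, adjusted p = 0.00767) were lower by the authors' deposited table. Rplp2 (-0.55 ± 0.35, adjusted p = 0.157) and Rpl12 (-0.34 ± 0.30, adjusted p = 0.336) were not called in it. The partners of 5S ribosomal RNA, which bind Mdm2 when assembly fails, had deposited values of -0.19 ± 0.16 (Rpl5, adjusted p = 0.332) and -0.33 ± 0.26 (Rpl11, adjusted p = 0.274). The difference between these groups of genes was not tested.

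By evolutionary origin the counts were as follows, with no test between the groups. Of 33 subunits with a counterpart in bacteria, 18 were lower and 1 higher, with a median of -0.60. Of 42 found only in archaea and eukaryotes or in eukaryotes alone, 22 were lower and 1 higher, with a median of -0.64. Of 4 X-linked subunits (Rps4x, Rpl39, Rpl36a, Rpl10), 3 were lower and Rpl10 was not called.

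Some subunits carry names outside the symbol rule. Fau, a ubiquitin-like protein fused to subunit S30, was lower in the authors' deposited table at -1.09 ± 0.29 (adjusted p = 0.000297). Rack1, a signalling scaffold on the small subunit, had -0.79 ± 0.21 there (adjusted p = 0.000567).

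The paralogs gave the largest fold of the members. Rpl39l, a paralog of Rpl39 best known from mouse testis (ENSMUSG00000039209, GRCm38 chr16:10170197-10174911), was higher in iBAT at 4.11 ± 0.55 in the authors' deposited table (adjusted p = 1.36e-13), a ratio of 17.3 on a base mean of 30.1. None of the other 8 paralogs was called in either direction. By the authors' deposited table Rps27l, a p53 target, had 0.35 ± 0.23 (adjusted p = 0.188) and Rpl36al had -0.48 ± 0.24 (adjusted p = 0.0787). Rps27rt, Rpl7l1 and Rps4l (a transcribed pseudogene in RefSeq) had 0.34 ± 0.48, 0.13 ± 0.23 and -0.26 ± 0.31 there. Rps3a2 and Rps3a3, which RefSeq lists as pseudogenes, had -0.29 ± 0.69 and -0.58 ± 0.62, and Rpl10l, which replaces Rpl10 in mouse spermatocytes, had -0.39 ± 1.11 on a base mean of 1.16, all in the authors' deposited table. Rps19bp1 had -0.40 ± 0.34 (adjusted p = 0.308) there.

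The members' folds varied with base mean. Of 51 members with a base mean of at least 5000, 37 were lower, 1 was higher and the median was -0.78, while of all 1161 genes at that base mean 325 were lower, 522 higher and the median was 0.27. Of 17 members between 1000 and 5000, 4 (23.5%) were lower and none higher, with a median of -0.36. Of all 4652 genes there, 21.5% were lower and 35.5% higher, with a median of 0.19. Of 22 members under 1000, 1 (4.55%) was lower and 2 (9.09%) were higher, with a median of -0.18. Of all 13134 genes there, 29% were lower and 13.7% higher, with a median of -0.24. The rank correlation of fold with base mean was -0.56 across the 90 members and -0.50 across the 77 subunits, which come from the same libraries and are not independent. At a base mean of at least 1000 the median SE was 0.27 for 68 members, and 79.3% of all 5813 such genes had a smaller one. Those 5813 genes had a median log2 fold change of 0.20. Relative to it the members' median was -0.75. Calls on these centred folds need a p-value from fold over SE, which without centring called 41 members lower and 2 higher, and 4434 genes lower and 3673 higher. With centring 48 members were lower and 1 was higher, and over all genes 5534 were lower and 2773 higher. Together the members held 1.40% of the summed base mean, and 2.18% of it without the 13 genes of the mitochondrial genome, which alone held 35.6%.

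**Figure D2:**
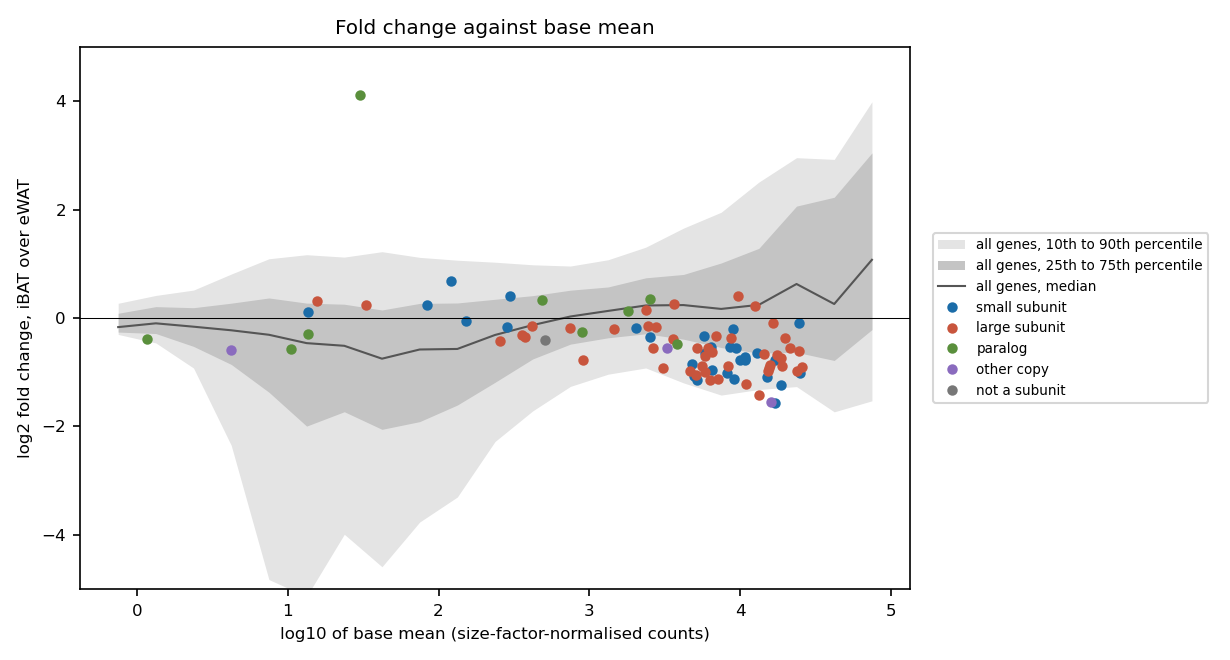
Log2 fold change of iBAT over eWAT (y axis) against log10 of base mean (x axis) for the 90 members, coloured by class, over the percentiles of all genes in bins of base mean; the lower edge of the outer band runs below the axis at -5 in 1 stretch. Most subunits of large base mean lie under the median line of all genes, Rpl3 being among the exceptions, and those of small base mean lie on both sides of it.

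For some subunits, copies named after the gene held more of the base mean than the gene did. Pseudogenes of these proteins are many in mammals, and reads that match a gene and its copy equally well cannot be told apart, so such genes are uncertain; how reads were split here, and how alike gene and copy are, was not tested. Of the 124 dropped -ps rows, 13 had a base mean of at least 1000, of which 10 were lower, none was higher and the median was -1.03. Of the 111 others, 8 were lower and 2 higher. Some calls among these others sit on folds smaller than their SE. Examples by the deposited values are Rpl10-ps1 (-0.30 ± 1.09, adjusted p = 2.43e-14) and Rpl9-ps6 (0.94 ± 1.74, adjusted p = 0.0355). For 11 of the 77 subunits, copies named after the gene held over 50% of the summed base mean of gene and copies. Of these 11 genes 2 were lower, none was higher and the median was -0.18. When gene and copies were summed, the median of the same 11 was -0.78 and 10 were below 0, with Rpl15 at 0.04. Of the 66 other subunits 39 (59.1%) were lower, with a median of -0.69. Sums assume that the base mean is the mean of both tissues, and they were added after the data had been seen. They have no SE, and copies with other names were not traced.

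Rps12 (GRCm38 chr10:23785183-23787383) had a base mean of 13.6 and 0.11 ± 0.92 in the authors' deposited table, while 8 copies held 99.9% of the family. The largest copy was Rps12l1 (chr7:56013934-56014429), a pseudogene in RefSeq, lower at -1.56 ± 0.32 in the authors' deposited table (adjusted p = 1.55e-06, base mean 15974). The summed family stood at -1.41. For Rpl31, Rpl31-ps8 had -0.96 ± 0.30 in the authors' deposited table on a base mean of 10510, copies held 96.2%, and the sum was -0.93. For Rpl10, which is added last to the large subunit, Rpl10-ps3 had -1.30 ± 0.23 there (adjusted p = 7.57e-08, base mean 15102), copies held 86.9%, and the sum was -1.04. Rps6, the substrate of the S6 kinases, was lower both as a gene (-0.65 ± 0.28, adjusted p = 0.033) and as Rps6-ps4 (-1.05 ± 0.26, adjusted p = 0.000115) in the authors' deposited table. Rpl3 went the other way as a gene only: Rpl3-ps1 had -3.76 ± 0.81 in the authors' deposited table (adjusted p = 1.3e-06, base mean 4409), and the summed family had -0.51, opposite in sign to the call of the gene. Among the other copies the rule let in, Rpl37rt had -0.56 ± 0.27 (adjusted p = 0.0683, base mean 3256) and Rpl6l -0.60 ± 1.12 (base mean 4.23) in that table. Over all 77 subunits summed with their copies the median was -0.71, with 70 below 0.

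**Figure D3:**
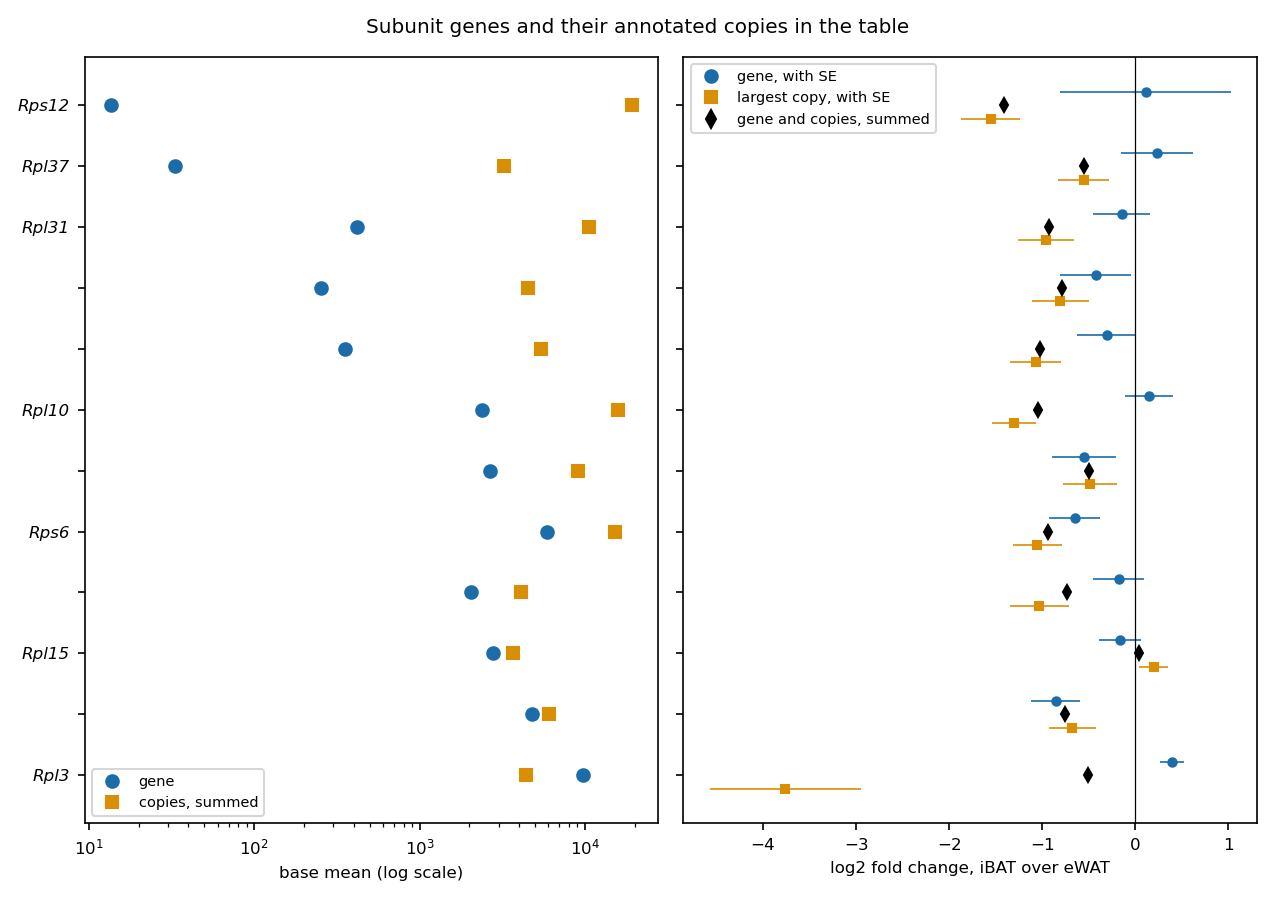
Base mean on a log axis (left) and log2 fold change of iBAT over eWAT (right) for the 11 subunit genes whose copies hold over 50% of the family base mean, and for Rpl3; bars are 1 SE, diamonds are gene and copies summed, and genes described in the text are named. The copies' folds lie left of the genes' for 9 of the 12, and the sum for Rps12 (-1.41) lies near its copy.

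Other parts of the translation machinery did not move as 1 group. The elongation factors, several of which are TOP mRNAs too, had 6 of 10 (60%) lower and 1 (10%) higher, with a median of -0.46. Among all genes, 27.1% were lower and 20.9% higher. Eef1d (-0.92 ± 0.31, adjusted p = 0.00523) and Eef1a1 (-0.32 ± 0.14, adjusted p = 0.0432), which delivers aminoacyl-tRNA, were lower in the authors' deposited table, and Eef2, the translocase, had 0.11 ± 0.11 (adjusted p = 0.458). Eef1a2, the form of muscle and nerve, was higher at 7.39 ± 0.34 there (adjusted p = 3.65e-104), and Eef2k, the kinase that inhibits Eef2, was lower at -1.58 ± 0.21 (adjusted p = 7e-13). Of 19 other TOP mRNAs measured, which include elongation factors, 12 (63.2%) were lower and 1 (5.26%) higher, with a median of -0.39. Nap1l1, a histone chaperone, had by the authors' deposited table -1.84 ± 0.52 (adjusted p = 0.000311), Hnrnpa1 -1.11 ± 0.19 (adjusted p = 8.56e-09), and the poly(A)-binding Pabpc1 0.48 ± 0.22 (adjusted p = 0.0497). The members and these lists were not tested against each other.

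Initiation factors were split. Of 14 eIF3 subunits, 3 (21.4%) were higher, 2 (14.3%) lower and 9 not called, with a median of -0.18. Eif3j2 had 0.76 ± 0.18 (adjusted p = 5.31e-05) and Eif3l 0.53 ± 0.14 (adjusted p = 0.000758) by the authors' deposited table. At the other end Eif3g had -0.59 ± 0.29 there (adjusted p = 0.0697). Of 29 other initiation genes, 10 (34.5%) were higher, 6 (20.7%) lower and 13 not called, with a median of 0.13. Of all genes, 20.9% were higher and 27.1% lower. Among all genes with a base mean of 1000 to 5000, 35.5% were higher and 21.5% lower. The median base mean of the 29 was 2959, and their shares were near those of these genes. By the authors' deposited table Eif4e3, a cap-binding protein, had 1.44 ± 0.20 (adjusted p = 4.11e-12), and Eif4ebp3, a repressor of cap binding, had -3.65 ± 0.54 (adjusted p = 1.4e-11). Eif5 had 1.42 ± 0.44 there (adjusted p = 0.00133) and Eif2b3 -1.27 ± 0.31 (adjusted p = 9.17e-05).

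Ribosome assembly genes were mostly not called. Of 42 small subunit assembly genes, 8 (19%) were higher, 7 (16.7%) lower and 27 not called, with a median of -0.01. Of 45 large subunit assembly genes, 2 (4.44%) were higher, 14 (31.1%) lower and 29 not called, with a median of -0.27. Among all genes, 20.9% were higher and 27.1% lower. Pno1 had 0.81 ± 0.14 by the authors' deposited table (adjusted p = 1.88e-08) and Ltv1, a factor of the small subunit precursor, -0.66 ± 0.18 (adjusted p = 0.000715). The GTPase Gnl2 had -1.19 ± 0.29 (adjusted p = 9.94e-05) there and the AAA ATPase Mdn1 0.86 ± 0.22 (adjusted p = 0.000189). Of 15 RNA polymerase I genes, which make the large ribosomal RNA, 2 (13.3%) were higher, 2 (13.3%) lower and 11 not called, with a median of -0.17. Polr1a, the largest subunit, had 1.01 ± 0.27 (adjusted p = 0.000373) and Taf1b -1.12 ± 0.35 (adjusted p = 0.00183) in the authors' deposited table.

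Of 19 mTORC1 and Larp1 genes, 7 were higher, 3 lower and 9 not called, with a median of 0.28. The kinase Mtor had 1.80 ± 0.27 in the authors' deposited table (adjusted p = 1.3e-10), its partner Rptor 0.96 ± 0.15 (adjusted p = 2.03e-09), and Deptor, a protein that binds and inhibits it, 2.00 ± 0.30 (adjusted p = 3.58e-11). The Rag GTPases Rragd and Rragb had 2.33 ± 0.42 (adjusted p = 3.53e-08) and 2.04 ± 0.48 (adjusted p = 1.92e-05) there. The inhibitors Sesn1 and Ddit4 were lower in the authors' deposited table at -1.10 ± 0.12 (adjusted p = 6.87e-20) and -0.96 ± 0.27 (adjusted p = 0.000906), and Larp1 had 0.14 ± 0.17 (adjusted p = 0.504).

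The mitochondrial ribosomal proteins, counted from the same table, had 51 of 77 higher (66.2%), 1 lower and 25 not called, with a median of 0.80. The cytosolic subunits, also 77, had 2 higher and 41 lower. Mrps36, since assigned to the oxoglutarate dehydrogenase complex, had 3.05 ± 0.19 (adjusted p = 1.74e-55) and Mrpl34 1.99 ± 0.28 (adjusted p = 2.84e-12) by the authors' deposited table. Mrps6, the only one called lower, had -0.91 ± 0.31 there (adjusted p = 0.00541). The 2 sets share all libraries, and their difference was not tested.

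**Figure D4:**
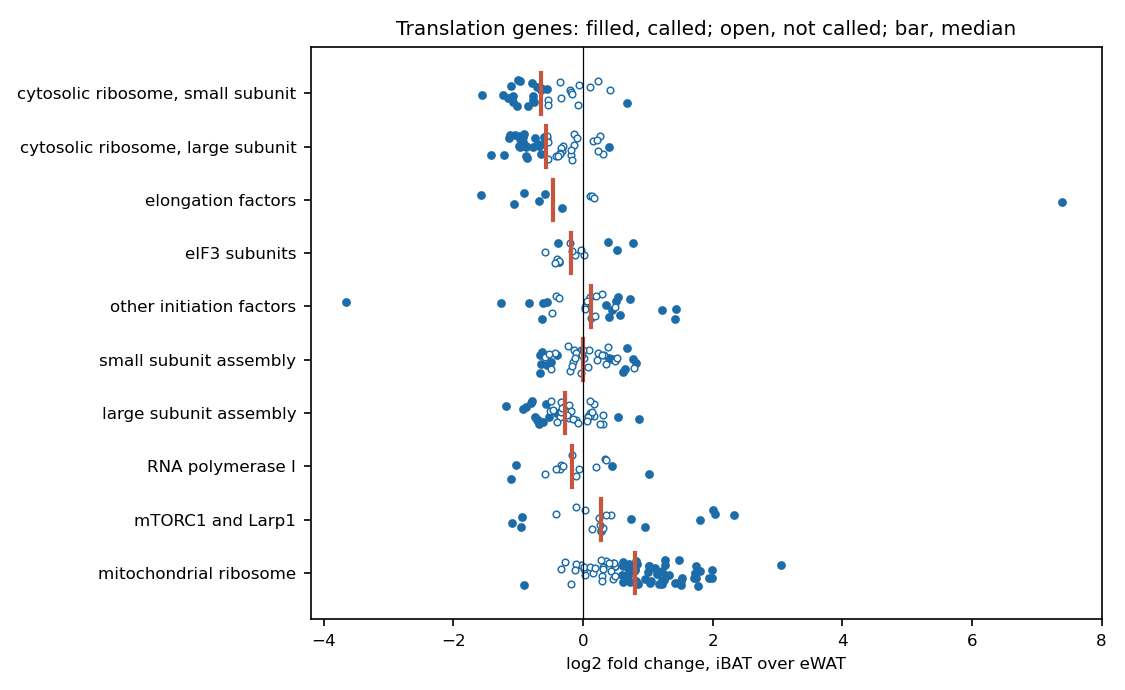
Log2 fold change of iBAT over eWAT (x axis) of each measured gene in 10 lists of the translation machinery (rows), with filled points for calls at an adjusted p under 0.05, open points for the rest and a bar at each list's median. The medians of the cytosolic subunits are -0.65 and -0.58 and that of the mitochondrial ribosome is 0.80.

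Markers of several cell types differed between the depots. All 13 brown adipocyte markers were higher in iBAT (median log2 fold change 6.56) and all 9 white adipocyte markers were lower (-4.10), the direction having been read from Ucp1 and Lep among them. All 18 skeletal muscle markers were higher in iBAT (7.51). Lower in iBAT were 13 of 14 macrophage markers (-1.89), 9 of 14 lymphocyte markers (-1.54), all 12 mesothelial markers (-8.92), all 12 fibroblast and progenitor markers (-1.04) and 6 of 9 epididymis markers (-14.34), while 3 of 10 endothelial markers were higher and 4 lower (median 0.003). The table gives no level per library, so the lists' summed levels in each group cannot be given, and the part of these cells in the ribosomal protein values was not tested. In whole tissue, fewer cells of a type and less RNA per cell cannot be told apart.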

How the data were processed

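Total RNA of 4 iBAT and 4 eWAT libraries was made with a stranded kit and sequenced, per the labels' protocols. Tools and builds in the submitters' processing notes are DESeq, DESeq2, GRCm38, mm10 and kallisto 0.45.0, with no role stated. Per the file headers, the base mean is a signal, counts divided by size factors and averaged over libraries; the log2 fold changes, their SEs, the p-values and the adjusted p-values were also made by the authors. The direction is not stated: positive was read as higher in iBAT, since Ucp1 was at 15.87 and Lep at -2.77. Benjamini-Hochberg adjustment of the deposited p-values gave the deposited adjusted ones within 2.40159e-07. For 4 of 90 members the p-value equalled that of fold over SE within 0.01 on the log10 scale; which test gave the others is not stated in the sources. Total counts per library, and so depth, are unknown.

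Symbols came from a gene name table (18758 genes matched, 189 did not). Python 3.11.15, pandas 2.3.3, numpy 2.4.6 and scipy 1.17.1 were used, and the calling step was tested on simulated data. Members and lists were chosen with earlier results of these data known. Genes were named by a rule: all paralogs, subunits outside the symbol rule and Rps19bp1; the 10 highest and 10 lowest subunit folds, the stalk, 5S and tunnel members and the 3 largest base means; and of each other list members from the 2 largest and 2 smallest folds. Copies, Eef1a1, Eef1d, Eef2, Mtor, Rptor, Deptor, Larp1, Rps6 and the S6 kinases were added after their values were seen. Rpl3l and Rpl22l1, the Snhg host genes of small nucleolar RNAs, and 27 samples of other assays were not analysed here. A few genes that the rule would name are not reported here. Alternatives changed the p-values, the centre, the threshold, the minimum fold, the base mean filter and the members.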

Additional observations from a re-analysis of the deposited data

How the results depend on the processing

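The number of members lower in iBAT was between 32 and 48 over all alternatives (42 as reported), that of structural subunits between 31 and 45 (41 as reported), and the members' median log2 fold change between -0.75 and -0.46. Each stayed within 1.5 times the reported count, or within the spread of the members. Every centred setting also took p from fold over SE, which alone gave 41 members lower (background 23.4%) and ended the calls of Rpl30 and Rps26. Both changes together, with the median of all genes as centre, gave 32 members lower (background 21.2%), with 10 calls ended, Rpl30 among them; Rpl22, Rpl27, Rpl41, Rpl9, Rplp0, Rps19 and Rps6 were others. That centre turned Rps2 to 0.012 and Rps7 to 0.037, neither of them called. The structural subunits called higher, 2 as reported, were 1 with p from fold over SE, with folds centred on genes of base mean at least 100, at an adjusted p under 0.01, with an absolute log2 fold change of at least 0.5, and with a base mean of at least 1000. They were 0 when centred on genes of base mean at least 1000, with 0 also at an unadjusted p under 0.05 from fold over SE. The members called higher, 3 as reported, were 1 under either base mean limit of 1000. The settings with that limit or about copies were chosen after seeing the data. The cause was not tested. No paired analysis was possible because the table holds no value per library; leaving out each library was not run for the same reason. What depth limits cannot be given beyond the SE.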

Other observations

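The kinase genes named Rps6k were dropped from the members by name; Rps6kb1 and Rps6kb2 encode the S6 kinases that phosphorylate Rps6. Of 9 measured, 1 was higher, 3 were lower and 5 were not called, with a median log2 fold change of -0.41 (iBAT over eWAT). In the authors' deposited table Rps6ka2 had 1.52 ± 0.17 (adjusted p = 1.37e-17) and Rps6ka1 -1.004 ± 0.267 (adjusted p = 0.000342). Rps6kb1, the kinase downstream of mTORC1, had -0.10 ± 0.23 there (adjusted p = 0.746).

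Termination and recycling were covered by 4 genes, of which 2 (50%) were higher and 1 (25%) lower in iBAT (median 0.35). Abce1, which splits ribosomes, had 0.69 ± 0.17 in the authors' deposited table (adjusted p = 9.07e-05), and the release factor genes Gspt1 and Gspt2 had 0.47 ± 0.20 (adjusted p = 0.0334) and -1.33 ± 0.34 (adjusted p = 0.000154). Of 7 chaperones that escort single ribosomal proteins, 2 (28.6%) were lower and none higher, with a median of -0.01. Their log2 fold change was negative for 4 and positive for 3. Of all genes, 27.1% were lower and 20.9% higher. Tsr2, which escorts Rps26, had -0.79 ± 0.16 in the authors' deposited table (adjusted p = 5.2e-06). Rps26 had 0.68 ± 0.31 there (adjusted p = 0.0436) on a base mean of 122. Its call ended when the p-value was computed from fold and SE (adjusted p = 0.0623), and a link between the 2 genes was not tested. Aamp, whose yeast counterpart escorts the counterpart of Rpl10, had -0.57 ± 0.21 in the authors' deposited table (adjusted p = 0.0139).

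4 copies of Rpl35a (Rpl35a-ps2, Rpl35a-ps3, Rpl35a-ps4 and Rpl35a-ps6) had the same values in the authors' deposited table, a base mean of 2.24 and a log2 fold change of 0.04 ± 0.82.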
